A study of Caenorhabditis elegans with 3 samples.

Results

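The NHR-25 sites described here are the 548 regions that lay inside introns of autosomal protein-coding genes in L2 larvae of Caenorhabditis elegans. They were taken from the optimal list of 4548 reproducible regions on the ce11 build, of which 3629 were autosomal. A region was kept when its summit, the position of highest signal, lay inside a protein-coding gene but in no exon of any gene. Sites closer to a protein-coding transcript start, from 1000 bp before it to 200 bp after it, were left out. The 548 intronic sites made up 12% of the optimal list and 15.1% of its autosomal regions (95% Wilson interval 13.97 to 16.3%), beside 1957 sites in promoter windows, 939 distal intergenic sites and 185 exonic sites. A further 148 intronic sites of the X chromosome were not included.

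The study profiled a single group of 3 biological replicates by chromatin immunoprecipitation and sequencing (ChIP-seq) of NHR-25. The worms were whole larvae of mixed sex of strain OP33, genotype unc-119(ed3) III; wgIs33, and carried a transgene for NHR-25 with GFP-FLAG at its C-terminus. All libraries came from this strain. Whole animals were used, so the tissue in which a site was bound is not known from these data. Replicate 3 was labelled with sonication and with another source of worms, while replicates 1 and 2 were labelled with a size range of 150 to 350. Peak lists hold no read counts, and sequencing depth is therefore not known; intervals on shares of sites cover counting error only.

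NHR-25 is the worm ortholog of Drosophila FTZ-F1 and of mammalian SF-1 and LRH-1. Receptors of this family bind DNA as monomers, and their site is a nuclear receptor half-site with extra bases on its 5′ side. In the worm it acts in epidermal and seam cell development, molting and vulva formation. Introns of worm genes can hold enhancers and internal promoters, and long introns near the 5′ end are common places for both.

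The sequences under the strongest intronic summits are shown first, because 4 of the 10 sites of highest signal shared the letters GAGACGCA, read TGCGTCTC on the other strand. Each sequence is the plus strand of ce11 from 50 bp before to 50 bp after the summit, from the RefSeq sequence of the assembly, and capitals mark these letters on either strand. The strongest member lay in Y111B2A.12, the next in pqn-41, which encodes a glutamine/asparagine-rich protein, and the next in epg-9, an autophagy gene. The pqn-41 window holds no copy, while the epg-9 window holds more than 1.
Y111B2A.12, chrIII:12612623-12612723: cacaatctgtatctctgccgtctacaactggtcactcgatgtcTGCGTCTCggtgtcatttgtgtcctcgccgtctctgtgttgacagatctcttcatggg
epg-9, chrIV:2602093-2602193: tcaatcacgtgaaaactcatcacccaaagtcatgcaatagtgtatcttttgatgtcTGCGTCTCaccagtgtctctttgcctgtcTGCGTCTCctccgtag
pqn-41, chrIII:1925325-1925425: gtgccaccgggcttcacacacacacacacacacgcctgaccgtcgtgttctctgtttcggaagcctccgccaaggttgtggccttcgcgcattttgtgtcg

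The extended half-site CAAGGTCA, the form preferred by FTZ-F1 family receptors, lay within 50 bp of 8 of the 548 summits. Windows of 4 of these sites are shown with the site in capitals, as CAAGGTCA or its reverse complement. They lay in E01G4.3, in the cuticle collagen gene col-159, in the galectin gene lec-2 and in the nuclear hormone receptor gene nhr-22. These are not the 4 of highest signal, since the site in snrp-40.2 (164) stood above that in nhr-22 (161). In 3 of the 8 the copy lay within 25 bp of the summit, and in lec-2 it lay at the edge of the window.
E01G4.3, chrII:13465668-13465768: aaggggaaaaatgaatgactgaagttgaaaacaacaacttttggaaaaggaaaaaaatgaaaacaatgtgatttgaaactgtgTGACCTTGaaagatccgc
col-159, chrV:13200789-13200889: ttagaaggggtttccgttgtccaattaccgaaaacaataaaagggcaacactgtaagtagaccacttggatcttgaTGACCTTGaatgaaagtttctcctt
lec-2, chrII:10011065-10011165: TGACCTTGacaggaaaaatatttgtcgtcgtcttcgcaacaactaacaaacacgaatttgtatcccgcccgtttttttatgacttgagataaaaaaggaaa
nhr-22, chrII:6448306-6448406: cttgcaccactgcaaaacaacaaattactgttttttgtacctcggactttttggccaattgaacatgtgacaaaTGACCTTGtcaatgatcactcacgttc

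Of the 7 motifs searched, 3 others are shown because they were more frequent at summits than at flanks. The windows in mnk-1, the gene of a kinase acted on by MAP kinases, and klf-1, a Krüppel-like factor gene, show the GAGA repeat GAGAGA in capitals. The windows in Y43F8B.2 and tbc-6 show the E-box CACGTG, a site of basic helix-loop-helix (bHLH) factors. The windows in bed-3, a zinc finger gene with roles in molting and vulval development, and wrt-1, a hedgehog-related gene, show AACCGGTT, the site of Grainyhead factors of the epidermis. Both were picked with their values in view from 9 members with this site, so they do not stand for the 9. Sites in tub-2 (372), src-2 (183) and K02D10.1 (178) had higher signals than those in bed-3 (172) and wrt-1 (143).
mnk-1, chrII:10552061-10552161: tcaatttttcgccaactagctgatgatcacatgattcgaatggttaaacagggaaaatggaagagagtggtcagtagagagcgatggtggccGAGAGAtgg
klf-1, chrIII:2876091-2876191: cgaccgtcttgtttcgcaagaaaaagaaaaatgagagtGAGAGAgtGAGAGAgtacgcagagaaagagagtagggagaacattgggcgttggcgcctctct
Y43F8B.2, chrV:19529345-19529445: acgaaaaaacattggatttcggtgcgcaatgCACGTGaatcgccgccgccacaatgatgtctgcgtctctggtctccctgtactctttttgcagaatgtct
tbc-6, chrII:6849447-6849547: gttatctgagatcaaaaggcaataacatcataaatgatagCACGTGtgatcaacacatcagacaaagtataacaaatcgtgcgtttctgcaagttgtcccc
bed-3, chrIV:9918085-9918185: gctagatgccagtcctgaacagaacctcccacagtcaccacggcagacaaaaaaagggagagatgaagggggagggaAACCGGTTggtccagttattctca
wrt-1, chrII:7531622-7531722: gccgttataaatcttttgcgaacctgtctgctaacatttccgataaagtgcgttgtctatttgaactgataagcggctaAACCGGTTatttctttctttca

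The motifs were searched on both strands in the 101 bases around each summit and in the same number of bases centred 500 bp further along the plus strand, so that each site served as its own comparison. GAGAGA was present at 169 of 548 summits (30.8%, 95% interval 27.1 to 34.8%) and at 31 flanks (5.66%), an exact McNemar test with a Benjamini-Hochberg adjusted p of 1.40e-26 over 7 motifs. The hexamer GACGCA was present at 50 summits (9.12%) and 7 flanks (1.28%; adjusted exact p = 1.48e-08). CACGTG was present at 39 summits (7.12%) and 6 flanks (1.09%; adjusted exact p = 1.26e-06). These 3 motifs passed the test at 0.05 under each alternative run for them. The motifs were chosen with earlier results of these data known, so the p-values are not independent of that choice. AACCGGTT was present at 9 summits (1.64%) and at 0 flanks, which allows a share of up to 0.547% (adjusted exact p = 0.00684). Its call was lost when any 1 replicate was left out (adjusted exact p from 0.0547 to 0.219), among the 2274 strongest optimal regions (0.587) and in windows of 25 bp on each side (0.175).

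The motifs bound by nuclear receptors were less frequent at these summits than the GAGA repeat. They were also less frequent in eligible introns at large, as given below, so the raw shares do not rank the motifs by enrichment. CAAGGTCA was present at 8 summits (1.46%, 95% interval 0.742 to 2.85%) and at 2 flanks (0.365%; adjusted exact McNemar p = 0.128). The shorter half-site AGGTCA, which lies inside CAAGGTCA, was present at 35 summits (6.39%) and 20 flanks (3.65%; adjusted exact p = 0.0684). GATAAG, a site of GATA factors, was present at 35 summits (6.39%) and 29 flanks (5.29%; adjusted exact p = 0.526). None of the 3 passed against this flank, but all 3 passed against the flank 500 bp on the other side, with adjusted exact p of 0.0391 for CAAGGTCA, 0.00165 for AGGTCA and 0.0391 for GATAAG. With the window around starts extended to 2000 bp upstream, CAAGGTCA also passed against the first flank (a difference of 1.46 points, adjusted exact p = 0.0438). None of the 3 passed in windows of 25 bp on each side, with differences of 0.182 points for CAAGGTCA, 1.82 for AGGTCA and 1.28 for GATAAG. Nor did any of them pass when any 1 replicate was left out, where the CAAGGTCA difference was 0.321 to 1.24 points. In windows of 100 bp on each side AGGTCA and GATAAG passed (adjusted exact p = 2.20e-05 and 0.00539). Beside these, over 183794 consecutive windows of the same length tiled along the eligible introns, CAAGGTCA occurred in 0.0816%, AGGTCA in 2.17%, GATAAG in 2.49%, GAGAGA in 3.93%, CACGTG in 1.35%, GACGCA in 1.87% and AACCGGTT in 0.0881%. Summit windows had a mean GC content of 40.4% and flank windows 35.8%, and the part of base composition in these shares was not tested.

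Over all 4524 nuclear regions of the optimal list the same windows held CAAGGTCA in 1.08%, AGGTCA in 6.56%, GAGAGA in 24.6%, CACGTG in 5.88%, GATAAG in 5.92%, AACCGGTT in 1.08% and GACGCA in 11.9%. Intronic summits differed from autosomal promoter summits in 2 of the 7 motifs by Fisher's exact test, two-sided, adjusted over 14 comparisons. GAGAGA was more frequent at intronic summits (30.8 against 22.5%, a difference of 8.36 percentage points, interval 4.18 to 12.7; adjusted exact p = 0.00109). GACGCA was less frequent (9.12 against 14.8%, a difference of -5.64 points, interval -8.34 to -2.55; adjusted exact p = 0.00361). The second difference had an adjusted exact p of 0.0578 when the window around starts was extended to 500 bp downstream. None of the 7 comparisons with distal intergenic summits passed, and for GAGAGA the difference was -0.683 points (interval -5.49 to 4.24). More of the 14 comparisons were called in windows of 100 bp on each side, as given in the closing section. Sites are not independent of each other, so these p-values are too small to the extent that neighbouring sites share sequence.

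The replicates' own lists were read beside these shares. Among the intronic sites in the 4548 strongest regions of each replicate, GAGAGA was found at 24.96% of summits in replicate 1, 26.5% in replicate 2 and 24.8% in replicate 3 (mean 25.4% ± 0.950, SD, n = 3), and at promoter summits at 19.7, 20.1 and 19.5%. At distal summits the shares were 28.8, 29.1 and 29.6%, so in every replicate the intronic share lay above the promoter share and below the distal share. GACGCA was found at 6.15, 7.58 and 7.93% of intronic summits (mean 7.22% ± 0.941) and at 15.03, 14.2 and 13.4% of promoter summits. At distal summits it was found at 11.99, 11.4 and 9.68%, so the intronic share was the lowest of the 3 classes in every replicate, and differences between classes within replicate lists were not tested. CAAGGTCA was found at 12 of 585, 3 of 554 and 4 of 580 intronic summits in replicates 1, 2 and 3, so replicate 1 held most of these sites. The AGGTCA shares were 6.84, 4.15 and 4.66% in the same order, with replicate 1 again the highest.

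**Figure D1:**
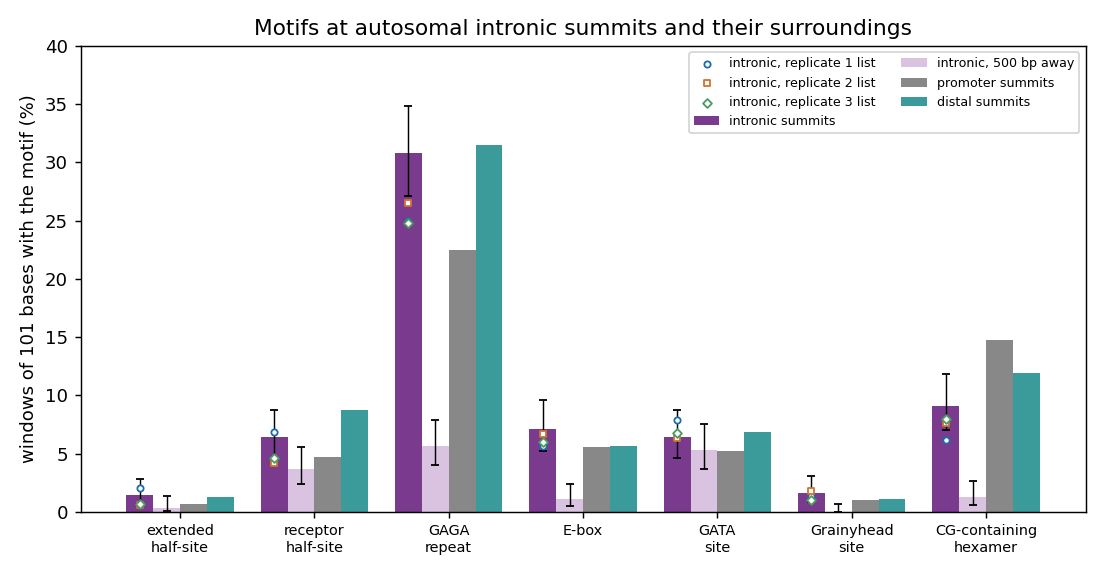
Share of 101-base windows (%) holding each of 7 motifs at the 548 autosomal intronic summits and 500 bp away from them, with 95% Wilson intervals as bars, and at promoter and distal intergenic summits; open symbols are intronic summits of each replicate's strongest regions. The GAGA repeat stood at 30.8% of intronic summits against 5.66% of flanks and 22.5% of promoter summits, while the extended half-site stood at 1.46% of intronic summits against 0.365% of flanks. Windows tiled along eligible introns held the GAGA repeat at 3.93% and the extended half-site at 0.0816%.

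The motifs were unevenly spread over the intronic sites. In 5 near-equal parts ordered from the highest signal to the lowest, GAGAGA was present in 45.5, 28.2, 28.4, 26.4 and 25.7% of members. CACGTG was present in 15.5, 3.64, 4.59, 5.45 and 6.42%, and GACGCA in 15.5, 4.55, 11.9, 4.55 and 9.17%. All 3 were most frequent in the 110 members of highest signal, and CACGTG and GACGCA had no steady order below that. Mean GC content was 45.1% in the highest part and 37.5% in the lowest. AGGTCA and CAAGGTCA stood at 7.27 and 1.82% in the highest part and at 7.34 and 1.83% in the lowest. Both GAGAGA and GACGCA were present at 27 members. The longer form GAGACGCA, chosen after its occurrence at the strongest sites had been seen, was present at 40 of the 548 summits (7.30%) and at 2 flanks, at 7.97% of promoter and 9.16% of distal summits. No motif of the 7 was present at 283 members (51.6%).

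The 8 members with the extended half-site were mostly sites of moderate signal. E01G4.3 had the highest signal (365, ranks 769, 460 and 1022 in replicates 1, 2 and 3), followed by col-159 (352, ranks 734, 813 and 1159) and lec-2 (263, ranks 1253, 1532 and 1589). These 3 were among the 4548 strongest regions of every replicate. The site in nhr-22 (161) ranked 2679, 5126 and 2365, so replicate 2 placed it outside the strongest regions. The remaining members with this sequence lay in snrp-40.2 (164), which encodes a protein of the U5 small nuclear ribonucleoprotein, scpl-1 (130), a phosphatase gene, the bHLH gene hlh-33 (115.1) and wdr-62 (109). The last of these ranked 3732 and 3831 in replicates 1 and 2 and overlapped none of the 30000 regions of replicate 3.

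Among the 9 members with AACCGGTT, the site in tub-2, a tubby-like gene, had the highest signal (372, ranks 640, 973 and 945). It was followed by src-2 (183), a Src-family kinase gene, K02D10.1 (178) and bed-3 (172), and these 4 were supported by all 3 replicates. The site in wrt-1 (143) ranked 4872, 3102 and 3946 and was supported by replicates 2 and 3.

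The signal of a region is the value given by the authors' peak caller, whose scale is not stated, so sites were ordered by it within a list and compared between replicates by rank. Intronic sites had a median signal of 167 (range 107 to 1430), beside 196 for promoter sites and 176 for distal intergenic sites. Of the 548, 82 (14.96%) lay in the highest of 5 equal parts of the nuclear list by signal and 135 (24.6%) in the lowest. A site counted as supported by a replicate when it overlapped, by at least 1 bp, one of that replicate's 4548 strongest regions. Replicates 1, 2 and 3 supported 424, 405 and 396 members, with median best ranks of 2683, 2577 and 2792. All 3 supported 265 members (48.4%, interval 44.2 to 52.5%), 2 supported 162, 1 supported 106 and 0 supported 15.

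Support by all 3 replicates was 55.3% over all nuclear regions of the optimal list. It was lower for intronic than for promoter sites (48.4 against 58.4%, a difference of -10.05 percentage points, interval -14.7 to -5.32; Fisher's exact test, two-sided, adjusted p = 6.76e-05 over 2 comparisons). The difference from distal intergenic sites was -5.85 points (48.4 against 54.2%, interval -11.1 to -0.586; adjusted exact p = 0.0314). Sites are not independent of each other, and summits of 1 region share their support, so these p-values are too small to that extent. With overlapping regions merged the differences were -11.0 and -6.53 points (adjusted exact p = 1.68e-05 and 0.0187). In the highest of the 5 parts by signal, support was near its ceiling, with 100% of intronic, 99.5% of promoter and 100% of distal sites. In the same order of classes the shares were 96.7, 93.9 and 94.1% in the next part, 52.8, 57.6 and 60.0% in the middle part, 15.04, 17.6 and 20.1% in the one after it and 8.15, 5.40 and 7.14% in the lowest. The intronic share was thus the lowest of the 3 classes in the middle part and the one after it and not in the others, and differences within parts were not tested. Support fell with signal in each class, and intronic sites had the lowest median signal of the 3. The part of signal in the class differences was not tested. The optimal list was itself derived from the same replicates. In the part of the list made up of its 2274 strongest regions the difference from promoter sites was -1.62 points (adjusted exact p = 0.831) and that from distal sites 0.498 points (0.890). With 9096 regions per replicate the differences were -3.58 and -2.17 points (adjusted exact p = 0.104 and 0.297).

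**Figure D2:**
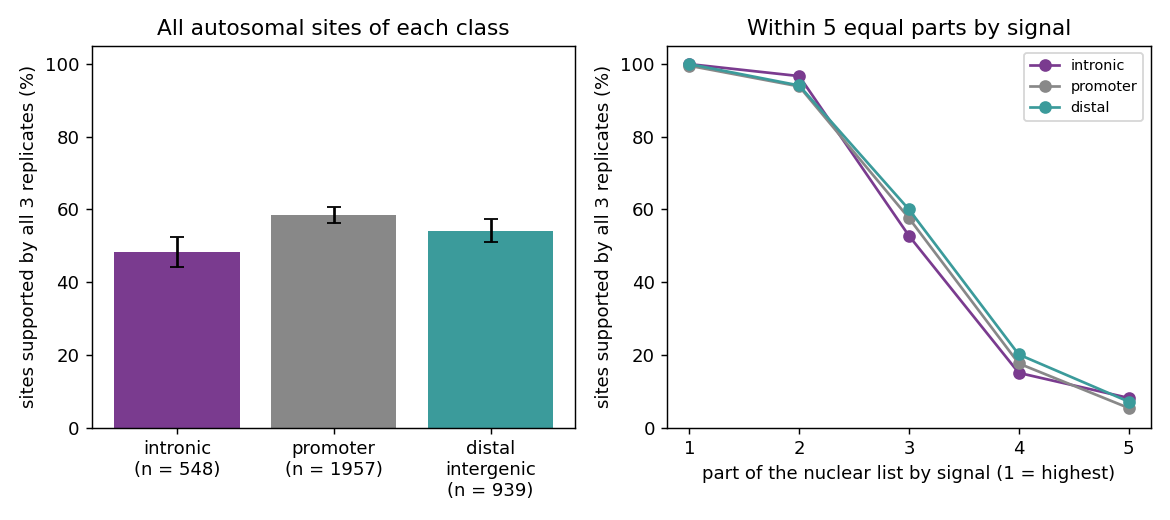
Share of autosomal sites (%) supported by the strongest regions of all 3 replicates, for each class with 95% Wilson intervals (left) and within 5 equal parts of the nuclear list by signal, 1 being the highest (right). Intronic sites stood at 48.4% against 58.4% for promoter sites, and within parts the intronic share was the lowest of the classes in parts 3 and 4 only; differences within parts were not tested.

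The 20 strongest members supported by all 3 replicates lay in 16 genes, with signals from 634 to 1430, and ranked between 15 and 400 in every replicate. The site in Y111B2A.12 (chrIII:12612370-12612938) ranked 34, 15 and 25 in replicates 1, 2 and 3. The strongest of the 4 sites in pqn-41 (chrIII:1925003-1925607, signal 1306) ranked 37, 21 and 45, and the site in epg-9 (chrIV:2601969-2602381, signal 1111) ranked 74, 37 and 65. These lay far above the bulk of each list in all 3 replicates. The 20 were chosen by signal and by support in lists from the same replicates. Their high ranks are therefore no separate evidence of reproducibility. W06H8.6 (1076) ranked 48, 97 and 73, Y43F8B.2 (967) 64, 90 and 112, and mnk-1 (905) 108, 82 and 102.

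Further sites of this rank lay in nhr-19, a nuclear hormone receptor gene (874; ranks 149, 96 and 87), zfp-1, the worm homolog of the chromatin factor AF10 (770; 171, 115 and 138), ccch-1, a CCCH zinc finger gene (713; 169, 118 and 225), and let-526, a homolog of the ARID1 subunit of SWI/SNF complexes (665; 400, 188 and 121). The site in klf-1 (634) ranked 237, 209 and 234. The others were sites in T28F4.1 (800), D2023.3 (715), F53E4.1 (707) and pkg-2 (667), a gene for a cGMP-dependent protein kinase. Of the 20, 11 lay in a first intron, 15 in an intron over 2000 bp, 9 held GAGAGA, 4 GACGCA, 3 CACGTG and 1 AGGTCA. In order of signal the first 145 members were supported by all 3 replicates, and the strongest without such support had a signal of 236.

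A pair of these sites (827 and 777) belonged to 1 region of 1535 bp in the first intron of unc-119 (chrIII:10904156-10905690), the gene mutated in this strain and commonly used as a rescue marker for worm transgenes. It ranked 212, 100 and 28 in replicates 1, 2 and 3, with replicate 3 the highest. Other regions of the optimal list at this gene had their summits in a promoter window (194) and in exons (567 and 608). A contribution of transgene DNA to the signal at unc-119 was not tested. Without unc-119 there were 546 members, of which 263 (48.2%) were supported by all 3 replicates.

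**Figure D3:**
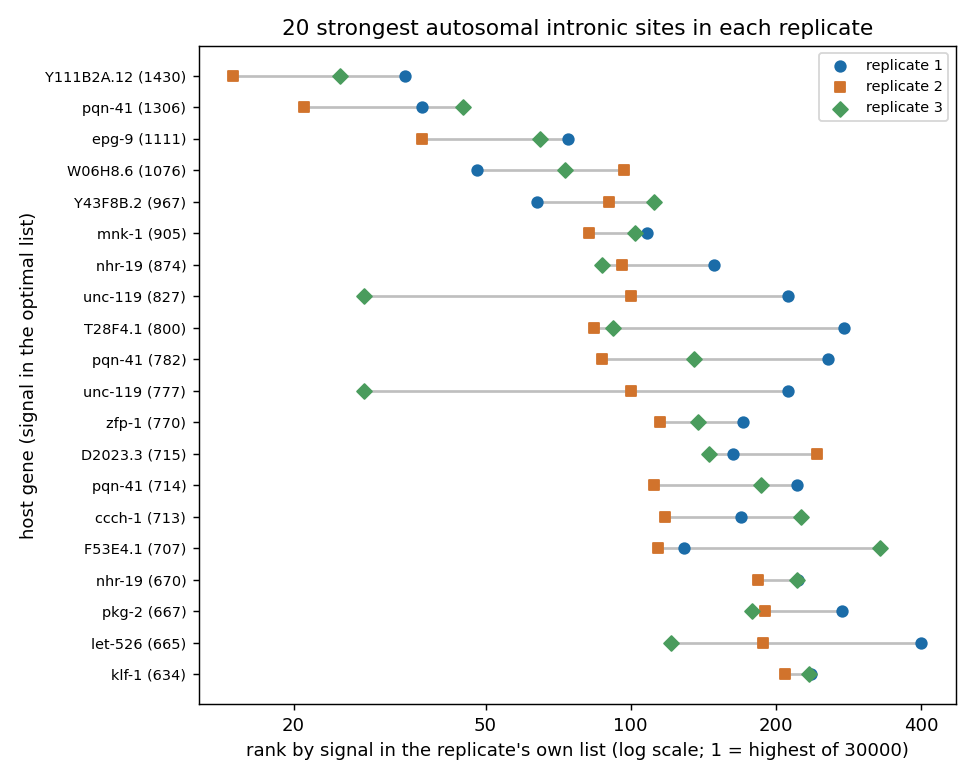
Rank by signal, on a log scale, of the 20 strongest autosomal intronic sites in the list of each replicate, with the host gene and the signal in the optimal list on the vertical axis; grey lines join the replicates. Every rank lay between 15 and 400 of 30000, and the widest gaps between replicates included the unc-119 region.

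Intronic sites were less dense than promoter and distal intergenic sites. Introns outside exons and windows took up 22.2 Mb, 26.9% of autosomal bases, and held 24.7 sites per Mb, beside 87.6 per Mb in promoter windows and 48.4 per Mb in distal intergenic sequence. In the 4548 strongest regions of replicates 1, 2 and 3 the intronic share of autosomal regions was 16.1, 15.3 and 16.1% (mean 15.8% ± 0.490, SD, n = 3). Over all 30000 regions of each list, background included, it was 31.6, 27.5 and 31.1% (mean 30.1% ± 2.20), above the share among the strongest regions in each replicate. The 5 autosomes held between 98 and 114 members each, or 22.1 sites per Mb of eligible intron on chromosome IV to 29.8 on chromosome II, while X held 33.1 per Mb.

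Within genes the sites lay more often in first and long introns than the bases did. A first intron of at least 1 coding transcript held 247 members (45.1%, interval 40.96 to 49.3%), beside 27.7% of eligible bases, which came to 40.1 sites per Mb against 13.3 for the sixth or later introns. In the replicates' own lists the first-intron share was 43.1, 43.9 and 42.4%. Introns over 5000 bp held 183 members (33.4%, interval 29.6 to 37.4%), beside 11.6% of eligible bases, at 71.3 sites per Mb, and introns up to 500 bp held 85, at 13.3 per Mb. Among introns over 2000 bp, first introns had 65.9 and later ones 46.5 sites per Mb, and among shorter introns the densities were 19.5 and 11.8. For a site, the intron number was the lowest over coding transcripts and the length that of the shortest intron around it. Number and length can therefore belong to different introns. These shares are a description without a test. The median intron that held a site was 2916 bp long.

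**Figure D4:**
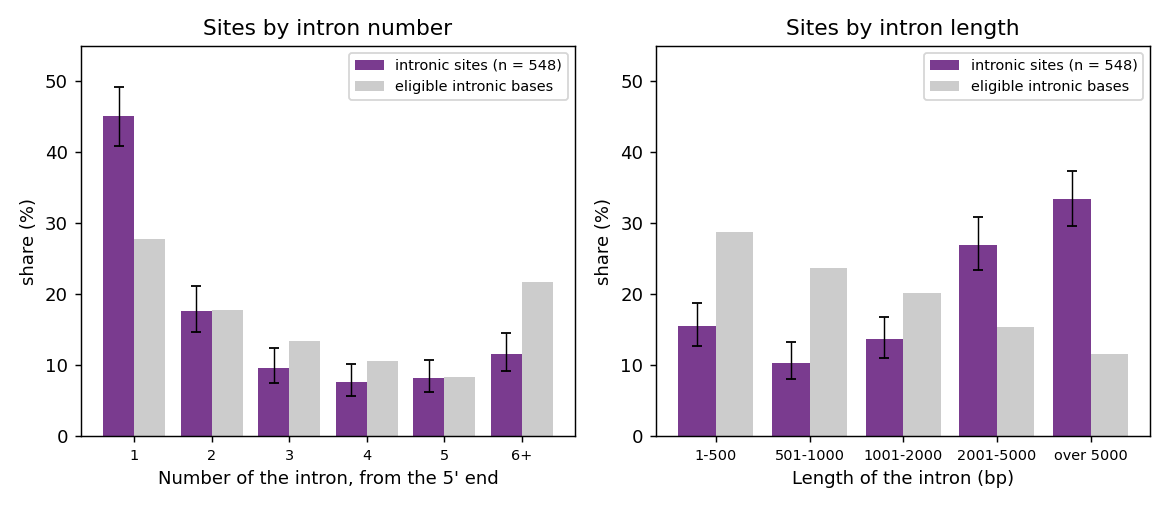
Share of the 548 autosomal intronic sites (%, with 95% Wilson intervals) and of the eligible intronic bases by the number of the intron from the 5′ end (left) and by its length in bp (right). First introns held 45.1% of sites and 27.7% of bases, and introns over 5000 bp held 33.4% of sites and 11.6% of bases.

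Most members lay well inside their genes. The median distance downstream of the nearest start of the host gene was 2216.5 bp (interquartile range 1101 to 4390 bp), and for 472 members (86.1%) the nearest start of any protein-coding transcript belonged to the host. Counted to any start on either side, 218 members (39.8%) were over 2000 bp away. At the edge of the rule, 12 members lay from 214 to 248 bp downstream of a start, with a median signal of 143 and 6 supported by all 3 replicates. Just outside it, 11 sites from 151 to 199 bp downstream had a median signal of 138, with 3 so supported. A small RNA gene lay within 500 bp of 23 members (4.20%), beside 4.19% of promoter and 5.64% of distal sites.

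The 548 sites fell in 378 genes, 2.55% of the 14843 autosomal protein-coding genes with eligible intronic bases. A single site was found in 279 genes, while 99 genes held 2 or more and 16 held 4 or more. Host genes had a median of 3596 eligible bases against 639 over all such genes, and 24.0% of the genes with over 10000 eligible bases held a site. The 172 neighbouring pairs within a gene were a median of 1346.5 bp apart. Of all members, 17 shared their region with another member, since the peak caller gave some regions several summits, so such members do not count as separate evidence.

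The gene with most members was daf-16, which encodes the FOXO transcription factor of insulin signalling, with 8 sites across its 26.2 kb. The site 19.4 kb from the 5′ end of the gene had a signal of 501.2 and ranked 493, 433 and 299 in replicates 1, 2 and 3. It was the only one of the 8 supported by all 3. The other 7 lay in 1 intron of 12401 bp with signals from 109 to 197, and each of them was outside the strongest regions of at least 1 replicate.

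The next genes differed in this respect. pkg-2 held 7 sites in an intron of 6824 bp, 5 of them supported by all 3 replicates, with signals up to 667. spsb-1, a SPRY and SOCS box gene, held 7, from 116 to 410. The sites of ccch-1 numbered 6, and those of T28B11.1, of the elongation factor gene ell-1 and of cwf-19L2, a relative of a human splicing-related gene, numbered 5 each. In pqn-41 all 4 sites were supported by all 3 replicates, with signals of 782, 714, 1306 and 541 along an intron of 7776 bp, and it was the only 1 of the 16 genes with such support at every site.

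Further genes with 4 sites were nhr-19, in which an intron of 4213 bp held signals of 874, 670, 399 and 120, and hlh-30, the TFEB homolog that acts in autophagy and lipid use, with 413, 401, 331 and 159. The others were egl-27, the MTA homolog that acts in seam cells, the cGMP-dependent kinase gene egl-4, the phosphatase subunit gene ppfr-1, and W06H8.6, ifbp-1 and Y67D8A.2. Of the 79 members in the 16 genes, 44 (55.7%) were supported by all 3 replicates, beside 48.4% of all members and 111 of 275 (40.4%) in single-site genes. These differences were not tested. Some of the 44 were further summits of a region that also held a stronger one, as in ppfr-1, pkg-2, ccch-1 and spsb-1. Such summits share the replicate ranks of that region and are not separate evidence. Sites in different regions could also overlap the same replicate region. Neighbouring sites in W06H8.6 shared ranks 3232, 920 and 1935, and neighbouring sites in ell-1 shared ranks 1460 in replicate 1 and 1681 in replicate 3.

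**Figure D5:**
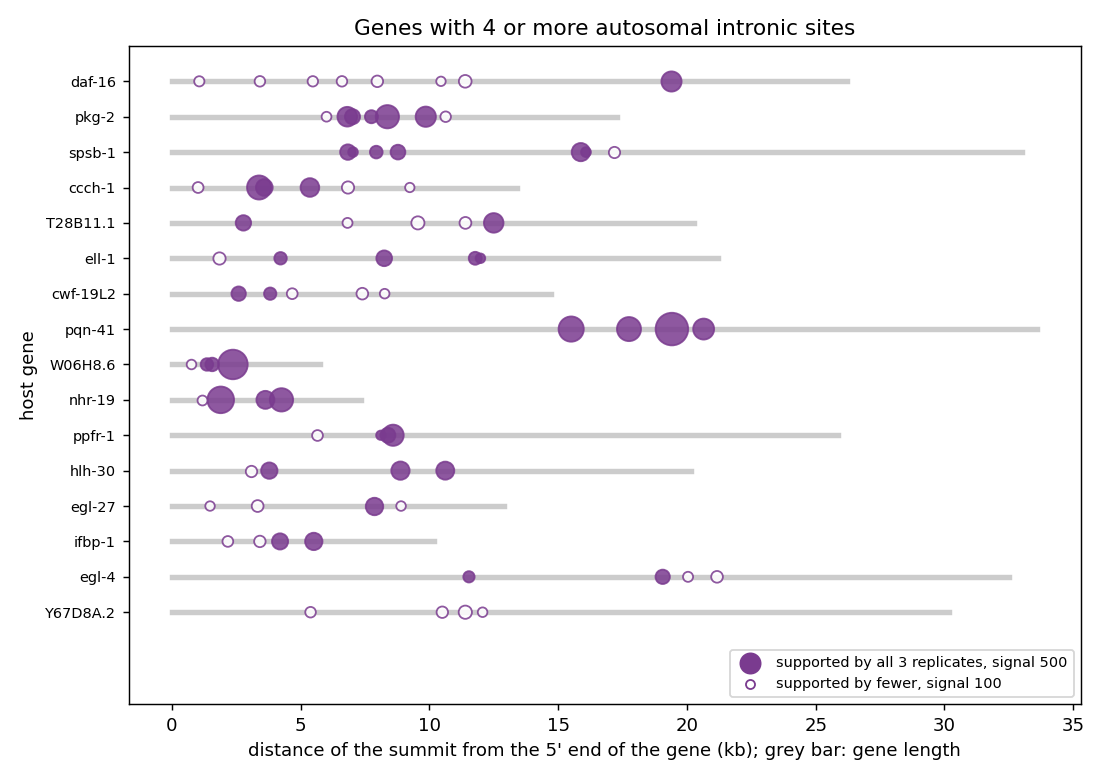
Distance (kb) of each summit from the 5′ end of the gene for the 16 genes with 4 or more autosomal intronic sites; grey bars give gene length, the area of a circle its signal, and filled circles are sites supported by all 3 replicates. The 4 sites of pqn-41 were all filled, whereas 1 of the 8 sites of daf-16 was.

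The host genes were read against 16 lists of genes, beside the 2.55% of eligible autosomal genes that held a site and their 24.3 sites per Mb. Genes with long introns have more room for sites, so the density is given beside the number of genes, and daf-16, nhr-23, egl-27 and others stand in more than 1 list. Of 17 epidermal and seam cell factor genes with eligible bases, 5 held a site (29.4%, 136 sites per Mb). These were egl-27 (376, ranks 434, 1388 and 678), nhr-23, the ROR-type receptor needed for molting (321; 1826, 417 and 1566), myrf-1 (188), the GATA factor gene elt-1 that specifies epidermis (179) and bed-3 (172). All 3 replicates supported 1 of the 4 sites of egl-27 and 0 of the 2 of myrf-1.

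Among 59 genes for bHLH, bZIP and forkhead factors, 7 held a site (11.9%, 130 sites per Mb), with daf-16, hlh-30 and fkh-7 (363) the strongest. The 2 of 7 insulin signalling genes were daf-16 and daf-2, the insulin receptor gene (229), at 145 sites per Mb. Of the sites behind these densities, daf-16 alone held 8 of 9 in the insulin list and 8 of 19 in the bHLH, bZIP and forkhead list, and 1 of the 8 was supported by all 3 replicates. Nuclear hormone receptor genes held sites in 11 of 243 (4.53%, 68.0 sites per Mb), led by nhr-19, nhr-31 (608; ranks 232, 208 and 310) and nhr-34 (327). Chromatin regulator genes held sites in 3 of 39 (7.69%, 97.6 sites per Mb), namely zfp-1, egl-27 and the E2F gene efl-1. Support by all 3 replicates was found at 3 of 3 sites in zfp-1, 1 of 4 in egl-27 and 0 of 2 in efl-1.

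The signalling and structural lists held sites as follows. EGF, Ras and Notch signalling genes held sites in 5 of 22 (22.7%, 52.3 per Mb), led by lag-1, the CSL factor of the Notch pathway (620; ranks 333, 136 and 301), lin-1, an ETS factor gene (182), and sos-1 (160). The site in sos-1 was not supported by all 3 replicates. Of the TGF-beta genes, 1 of 16 held sites, the Sno/Ski gene daf-5, with 369, 335 and 244 in an intron of 14446 bp and all supported by all 3 replicates, at 68.5 per Mb. Wnt genes held sites in 2 of 26, lit-1 (143) and apr-1 (121), at 35.8 per Mb. Heterochronic genes held sites in 2 of 11, the Period homolog lin-42 (134) and dre-1 (120), at 43.2 per Mb. No site of these Wnt and heterochronic genes was supported by all 3 replicates. Junction, adhesion and matrix genes held sites in 6 of 34 (30.2 per Mb), led by mup-4 (370), vab-10 (226) and the perlecan gene unc-52 (222). Axon guidance and cytoskeleton genes held sites in 4 of 37, led by unc-119, max-2 (175) and smp-1 (161), at 34.7 per Mb. Of the 8 sites behind this density, 2 were the summits of the 1 region in unc-119, the gene mutated in the strain. The sites of smp-1 were not supported by all 3 replicates. Cuticle collagen genes held sites in 2 of 109, col-159 (352) and col-72 (220), at 49.5 per Mb.

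In 4 lists the density was below the 24.3 sites per Mb over all such genes. Except for the homeobox list, their shares of genes with a site were nevertheless above the 2.55% over all such genes. Synaptic and ion channel genes held sites in 2 of 54 (3.70%), the CaMKII gene unc-43 (189) and nmr-2 (119.3), at 10.5 sites per Mb. Muscle structure genes held a site in 1 of 34 (2.94%), the dystrophin gene dys-1 (121), at 7.49 per Mb. The sites of nmr-2 and dys-1 were not supported by all 3 replicates. Homeobox genes held none in 65, which allows a share of up to 4.62%. Molting and apical matrix genes held sites in 2 of 56 (3.57%), dab-1 (405), an adaptor gene needed for molting, and cutl-18 (328), at 16.1 per Mb. Most of these lists have few eligible genes, and no test was made on them.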

How the data were processed

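Tagged NHR-25 was measured by ChIP-seq in 3 biological replicates of L2 larvae, which form 1 group. The authors deposited lists of 30000 regions per replicate, peaks and background together, called against a control not analysed here, and the optimal list was derived from these by a reproducibility threshold, per a note deposited with the files. The software for alignment and peak calling is not given in the sources used here. Each deposited region carries a signal of unstated scale and a −log10 q-value, per the deposited files, and the latter is tied at its highest value for 3849 optimal regions, which is why the signal was used for ranking. Depth is unknown.

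From the deposited ce11 lists, summits were annotated with Ensembl release 115 gene models, and sequence was read from the RefSeq assembly; 699 genes with shared names were named by RefSeq. Of lists for 16 groups, 5 names were not matched. Python 3.11.15, pandas 2.3.3 and scipy 1.17.1 were used. Motifs were searched on both strands. Exact McNemar tests (over 7 motifs) and Fisher's exact tests (over 2 and over 14 comparisons) were two-sided with Benjamini-Hochberg adjustment at 0.05, and were tested on simulated data. Sites are not independent, and these p-values cover sites of 1 group of worms.

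The members, motifs and lists were chosen with earlier results of these data known. Genes were named when they held 1 of the 20 strongest members supported by all 3 replicates, 4 or more members, the extended half-site, or up to 3 of the strongest sites of a list, with unc-119 for the strain; further hosts of the Grainyhead site, the hosts of E-box and GAGA windows and further list members were picked with their values in view. Alternatives changed the window around starts, the exons, the optimal list, the merging of regions, the motif window, the flank and the replicate support, and each replicate was left out by keeping the sites that both others support. Lists on ce10 were not used.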

Additional observations from a re-analysis of the deposited data

How the results depend on the processing

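The number of sites was within 1.5 times of 548 under the other windows and exon rules (410 to 647), but 231 among the 2274 regions of highest signal and 312 to 323 without 1 replicate. The intronic share of autosomal sites, 15.1%, was 17.8% with a window of 500 bp upstream, 11.3% with 2000 bp, 13.8% with 500 bp downstream, 16.5% with exons of protein-coding genes only, 12.9% among those 2274 and 13.7 to 13.9% without 1 replicate. The median rank of members, 56.5% down the nuclear list, was 54.5% with 500 bp downstream. The first-intron share was 46.8, 42.4 and 41.3% with these windows, 44.2% among those 2274, 46.04% after merging and 42.9 to 45.5% without 1 replicate. The share of genes with a site was 2.72% with 500 bp upstream, 2.73% with coding exons only, 1.15% among those 2274 and 1.56 to 1.58% without 1 replicate.

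The support difference from distal sites missed the threshold with windows of 500 bp upstream (-4.84 points), 2000 bp upstream (-6.16) and 500 bp downstream (-5.12), with 0.5 times (-3.53) and 2 times (-2.17) as many regions per replicate, and without replicate 2 (adjusted exact p = 0.0602; range without 1 replicate -5.60 to -4.93), and it reversed to 0.498 points among those 2274. The difference from promoter sites missed it among those 2274 (-1.62) and with 2 times as many regions (-3.58), and was -8.87 to -6.99 without 1 replicate. The flank on the other side called 7 motifs instead of 4, and 3 were called without any 1 replicate. Of 14 class differences, 1 was called with 500 bp downstream and 6 with windows of 100 bp. The cause of these changes was not tested. The unknown depth limits what can be said of weak sites.

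No paired comparison between groups of samples was possible because the 3 replicates form a single group.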
